A study of Solea senegalensis with 8 samples.

Results

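The miR-10 and miR-196 miRNAs in small RNA libraries of Senegalese sole (Solea senegalensis, a flatfish) are described here. Their rows were taken by number alone, whatever the letter, and the families were chosen with earlier results of these data known. This gave 8 of the 320 miRNAs of the series. These were miR-10a, miR-10b, miR-10c and miR-10d, and miR-196a, miR-196b, miR-196c and miR-196d. The 8 libraries covered 4 stages, each with 1 library from the group incubated as embryos at 21°C and 1 from the group incubated at 15°C. The stages were 75Ep (75% epiboly, when the cell sheet of the gastrula has nearly closed over the yolk), 20S (20 somites), Hatch (newly hatched larvae) and Met (the climax of metamorphosis). Whole embryos or whole larvae from eggs of a captive broodstock were used throughout, with no transgene or drug treatment, and each library was a pool of triplicate samples. Larvae were killed with an anaesthetic before freezing, and embryos were frozen directly. After hatching all larvae were kept at 1 temperature, so at Met the temperature names the incubation of the embryo. Larvae at Met were matched by stage and not by age.

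The miR-10 and miR-196 genes of vertebrates lie within the Hox clusters, the rows of homeobox genes that give cells their position along the axis from head to tail. Mature miRNAs guide the silencing complex to partly matching mRNAs, and both families are known to repress Hox mRNAs, among others. In zebrafish and mouse embryos they are known from the trunk and tail, where they are made together with nearby Hox genes as the axis extends. Members of a family differ in a few bases, and reads of such close copies may be shared out uncertainly between them. The positions of the sole genes were not analysed here.

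The trimmed reads numbered 2169069 to 4965849 per library, and 218 to 275 miRNAs had at least 1 read. The deposited log2 values set the reads of each miRNA against all trimmed reads of the same library, as a percent, and the reads of every member could be recovered from them as whole numbers. At 21°C all miRNAs together made up 6.59% of the trimmed reads at 75Ep, 22.3% at 20S, 30.5% at Hatch and 17.9% at Met. At 15°C they made up 6.84% at 75Ep, 23.1% at 20S, 24.9% at Hatch and 46.0% at Met. A member's share can therefore move with the share of all miRNAs. For that reason changes are also given with each library rescaled to its summed miRNA reads ("rescaled") and with each library centred on the median of the 179 miRNAs detected in all 8 ("centred"). In pools of whole animals, fewer cells that make a miRNA and less of it per cell cannot be told apart.

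The most abundant members were miR-10b and miR-10d. At its best rank, in the Hatch library at 15°C, miR-10b was the 5th most abundant miRNA of the library, and miR-10d was the 6th in the same library. In the 21°C libraries miR-10b had 0.0155% of the trimmed reads at 75Ep, 0.451% at 20S, 1.09% at Hatch and 0.243% at Met. Its 15°C libraries held 0.0216% at 75Ep, 0.450% at 20S, 1.16% at Hatch and 0.898% at Met. The temperatures were thus alike at 20S and Hatch and apart at Met. For miR-10d the 21°C libraries held 0.00705% at 75Ep, 0.447% at 20S, 1.24% at Hatch and 0.285% at Met. Its share at 15°C was 0.00735% at 75Ep, 0.537% at 20S, 1.13% at Hatch and 1.07% at Met. Both miRNAs were lowest in the 75Ep libraries and highest at Hatch, and the Met library at 21°C stood below the other Met library and below both 20S libraries. The reads behind these shares ran between 336 and 50046 for miR-10b and between 153 and 52977 for miR-10d.

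miR-10c and miR-10a were also lowest at 75Ep and, apart from miR-10a at 15°C, highest at Hatch, at lower levels. Of the trimmed reads at 21°C, miR-10c had 0.00530% at 75Ep, 0.155% at 20S, 0.446% at Hatch and 0.123% at Met. Of those at 15°C it had 0.00235% at 75Ep, 0.173% at 20S, 0.427% at Hatch and 0.369% at Met. It stood between miR-10d and miR-10a in every library. miR-10a had 0.000968% at 75Ep, 0.0296% at 20S, 0.0643% at Hatch and 0.0105% at Met in the 21°C libraries. In the 15°C libraries it had 0.000464% at 75Ep, 0.0186% at 20S, 0.0474% at Hatch and 0.0511% at Met. The 75Ep values of miR-10a rest on 21 reads at 21°C and 13 at 15°C, with exact binomial 95% intervals of 0.000599% to 0.00148% and 0.000247% to 0.000793%. Such intervals cover counting error only, and reads amplified by PCR are not independent molecules. Summed, the miR-10 miRNAs made up 0.437% of the miRNA reads at 75Ep, 4.85% at 20S, 9.31% at Hatch and 3.70% at Met in the 21°C libraries. In the 15°C libraries the sum was 0.464% at 75Ep, 5.10% at 20S, 11.1% at Hatch and 5.18% at Met. As a share of miRNA reads, too, the family peaked at Hatch at both temperatures.

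Summed, the miR-196 miRNAs were scarcer than the summed miR-10 miRNAs and peaked earlier. miR-196a alone had more reads than miR-10a in every library but that of Met at 15°C. At 21°C the share of miR-196a in the trimmed reads was 0.00309% at 75Ep, 0.0777% at 20S, 0.0675% at Hatch and 0.0124% at Met. At 15°C the share was 0.00111% at 75Ep, 0.0623% at 20S, 0.0518% at Hatch and 0.0476% at Met. It was thus highest at 20S at both temperatures, where it had 1992 reads at 21°C and 2070 at 15°C, and lowest at 75Ep.

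Reads of miR-196b at 21°C numbered 21 at 75Ep, 368 at 20S, 205 at Hatch and 21 at Met. Those at 15°C numbered 0 at 75Ep, 390 at 20S, 257 at Hatch and 20 at Met. The counts of the 2 temperatures were close at the 3 later stages. As a percent of the trimmed reads the 21°C libraries held 0.000968% at 75Ep, 0.0144% at 20S, 0.00630% at Hatch and 0.000494% at Met, and the 15°C libraries 0.0117% at 20S, 0.00596% at Hatch and 0.000403% at Met. No read at 75Ep and 15°C allows a share of up to 0.000107%, the share of 3 reads. The 20S libraries held the most miR-196b and the Met libraries were below the 75Ep library at 21°C. miR-196c had 1 read in all, in the Hatch library at 15°C, and miR-196d had 1 read in all, in the 20S library at 21°C. They entered no test, since miRNAs were tested only where at least 2 libraries held a read, which 295 of the 320 did.

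**Figure D1:**
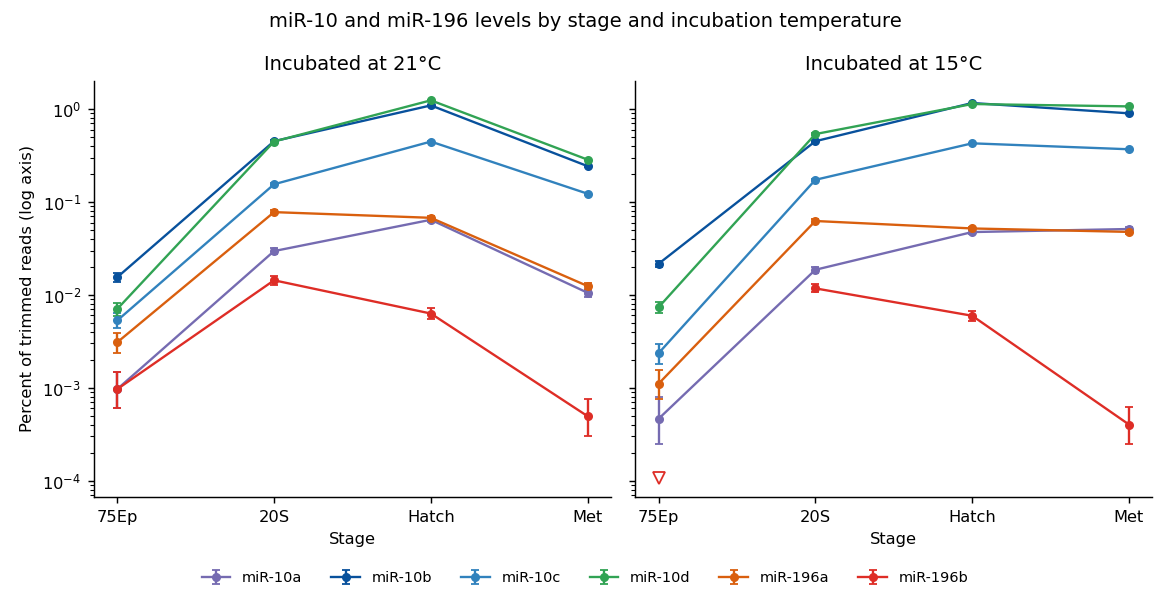
Percent of the trimmed reads (log axis) taken by each of 6 members at the 4 stages, with 21°C on the left and 15°C on the right. Points are single libraries, bars are exact binomial 95% intervals that cover counting error only, and the open triangle marks the 3-read limit of miR-196b at 75Ep and 15°C, 0.000107%. The miR-10 lines peak at Hatch apart from miR-10a at 15°C, which is 0.0511% at Met and 0.0474% at Hatch, and the miR-196 lines peak at 20S.

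On trimmed reads, the step from gastrula to somites had the largest change of the 3 steps between stages for each tested member. For miR-196b its size rests on the level given to a library with no read. Centred, the change of miR-196b was 4.52 at this step and -4.43 at Met minus Hatch. All 6 tested members were higher at 20S than at 75Ep (limma with stage and temperature as terms, Benjamini-Hochberg adjusted over all 295 miRNAs, threshold 0.05, two-sided), and none was lower. In the same comparison 39.3% of all miRNAs tested were higher and 1.02% were lower, so that many other miRNAs moved the same way. The median change was 5.38 on the log2 scale over the 6 members and 2.15 over all 295. Each stage entered with its 2 temperatures as its libraries, which leaves 3 residual degrees of freedom, and p-values measure only the spread between these pooled libraries.

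The fitted changes of miR-10d and miR-10c stood above those of miR-10b and miR-10a, with standard errors that overlap. miR-10d had 11459 reads at 21°C and 17839 at 15°C at 20S, against 153 reads at 21°C and a share of 0.00735% at 15°C at 75Ep, and its share was 63.4-fold higher at 21°C and 73.1-fold higher at 15°C. Its log2 change was 6.09 (standard error 0.86, limma adjusted p = 0.00573). miR-10c had 3973 reads at 21°C and 5743 at 15°C at 20S, against 115 and 66 at 75Ep, 29.2-fold higher as a share at 21°C and 73.5-fold higher at 15°C, with a log2 change of 5.53 (standard error 0.86, limma adjusted p = 0.00617). For miR-10a (5.13) and miR-10b (4.62) the limma adjusted p was 0.00664. In none of these 4 did the libraries of the 2 stages overlap, and the share of all miRNAs without overlap was not counted.

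miR-196a had a log2 change of 5.23 at this step (standard error 0.91, limma adjusted p = 0.00652), with a share 25.1-fold higher at 21°C and 56.4-fold higher at 15°C. For miR-196b the fitted change was 7.04 (standard error 1.58, limma adjusted p = 0.0122), a value that depends on the level given to the library with no read. With that library at 3 reads, the change was 5.33. Its share was 14.8-fold higher at 20S than at 75Ep at 21°C (95% counting interval 9.55 to 24.2) and at least 110-fold higher at 15°C, with 3 reads per library as the floor.

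Rescaled to miRNA reads, 5 of the 6 members were higher at 20S than at 75Ep and the median change of the members was 3.63, while 11.9% of all miRNAs were higher with a median of 0.39. Centred, again 5 of the 6 were higher, with a median of 2.87, while 10.8% of all miRNAs were higher with a median of -0.37. The member lost under both was miR-196b, with limma adjusted p of 0.0788 rescaled and 0.0577 centred. These scalings do not alter the order of log2 change at this step. From the highest, miR-196b was in place 2 of 295, miR-10d 10, miR-10c 16, miR-196a 22, miR-10a 24 and miR-10b 37. The place of miR-196b rests on the level given to the library with no read. With that library at 3 reads, its change of 5.33 on trimmed reads was below those of miR-10d and miR-10c. The calls rest on few libraries. Without the 20S library at 21°C no member passed (limma adjusted p 0.0618 to 0.0985, log2 changes 4.21 to 8.05), and 5 of all miRNAs did in place of 119. Without the 20S library at 15°C the log2 changes lay between 5.03 for miR-10b and 6.26 for miR-10d, and not all the calls held.

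At the next step, Hatch against 20S, no member passed in limma (none of the 6 at an unadjusted p under 0.05, and none with voom weights on the recovered reads), while 1.36% of all miRNAs were higher and none was lower. The log2 changes of the miR-10 miRNAs lay between 1.23 for miR-10a and 1.42 for miR-10c, against a median of 0.80 over all miRNAs. Summed, the miR-10 share was 2.63 times as high at Hatch as at 20S at 21°C, and 2.35 times as high at 15°C. The miR-196 miRNAs had values on the other side of 0, with a log2 change of -0.23 for miR-196a and -1.08 for miR-196b (limma adjusted p = 0.971 and 0.8001). Centred, miR-10a was at -0.06 and miR-10d at -0.02, on the same side of 0 as the miR-196 miRNAs, while miR-10b was at 0.03 and miR-10c at 0.12. Reads of miR-196b were 205 at 21°C and 257 at 15°C at Hatch, against 368 and 390 at 20S. The share of miR-196b at Hatch was 0.439 of that at 20S at 21°C (counting interval 0.368 to 0.522) and 0.507 at 15°C (0.432 to 0.595).

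At metamorphosis all 6 tested members had lower fitted values than at Hatch, and none passed in limma (1 of the 6 at an unadjusted p under 0.05, none with voom weights). Of all miRNAs 13.6% were higher and 4.07% were lower at this step, and the median log2 change was -1.26 over the members and 0.51 over all miRNAs. For miR-10a to miR-10d and miR-196a the changes lay between -1.28 and -1.04. Without the Met library at 21°C they were 0.25 for miR-10a, 0.05 for miR-196a, -0.06 for miR-10c, -0.18 for miR-10d and -0.42 for miR-10b, so the direction for miR-10a and miR-196a rests on that library. The changes are averages of unlike pairs, since the summed miR-10 share at Met was 0.232 of that at Hatch at 21°C and 0.862 of it at 15°C. The share of all miRNAs in the trimmed reads was 17.9% at Met and 30.5% at Hatch at 21°C, and 46.0% at Met and 24.9% at Hatch at 15°C, and its part in the result was not tested. Centred, all 6 members were lower at Met than at Hatch, with limma adjusted p of 0.0197 to 0.0449, while 15.3% of all miRNAs were lower.

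miR-196b was the member with the largest drop. It had 21 reads at 21°C and 20 at 15°C at Met, against 205 and 257 at Hatch, and its share was 12.7-fold lower at 21°C and 14.8-fold lower at 15°C. The fitted log2 change of -3.78 did not pass (standard error 1.58, limma adjusted p = 0.140). Without the 75Ep library at 15°C, which held no read of it, the same change had a limma adjusted p of 0.00398, and without the 75Ep library at 21°C one of 0.00598. The fit shares 1 spread over all stages, and these are the 2 libraries in which miR-196b differed most between temperatures. More of all miRNAs also passed at this step when 1 or the other was left out. The cause of the lower p-values was not tested.

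Met was also set against 20S, a comparison added after the values were seen. miR-196b was lower at Met, the only 1 of the 6 members to pass, with a log2 change of -4.86 (standard error 1.58, limma adjusted p = 0.0412), while 6.10% of all miRNAs were lower and 30.8% were higher. Its share was 29.0-fold lower at Met than at 20S at 21°C and 29.2-fold lower at 15°C, and in order of log2 change it was 8th from the lowest of the 295. The call is near the threshold. Rescaled, the change was -5.20 with a limma adjusted p of 0.0511, while 7.46% of all miRNAs were lower. The call was also lost in the limma fits without the 20S library at 15°C (-3.85, limma adjusted p = 0.197), without the Met library at 21°C (-3.85, limma adjusted p = 0.227) or at 15°C (-5.87, limma adjusted p = 0.128), and without the Hatch library at 21°C (limma adjusted p = 0.0615) or at 15°C (limma adjusted p = 0.0618). The other members had changes of -1.52 (miR-196a) to 0.38 (miR-10c). miR-196a passed in 1 of the fits with a library left out, that without the Met library at 15°C (-2.85, limma adjusted p = 0.0418). Centred, all 6 members were lower at Met than at 20S, while 26.8% of all miRNAs were.

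**Figure D2:**
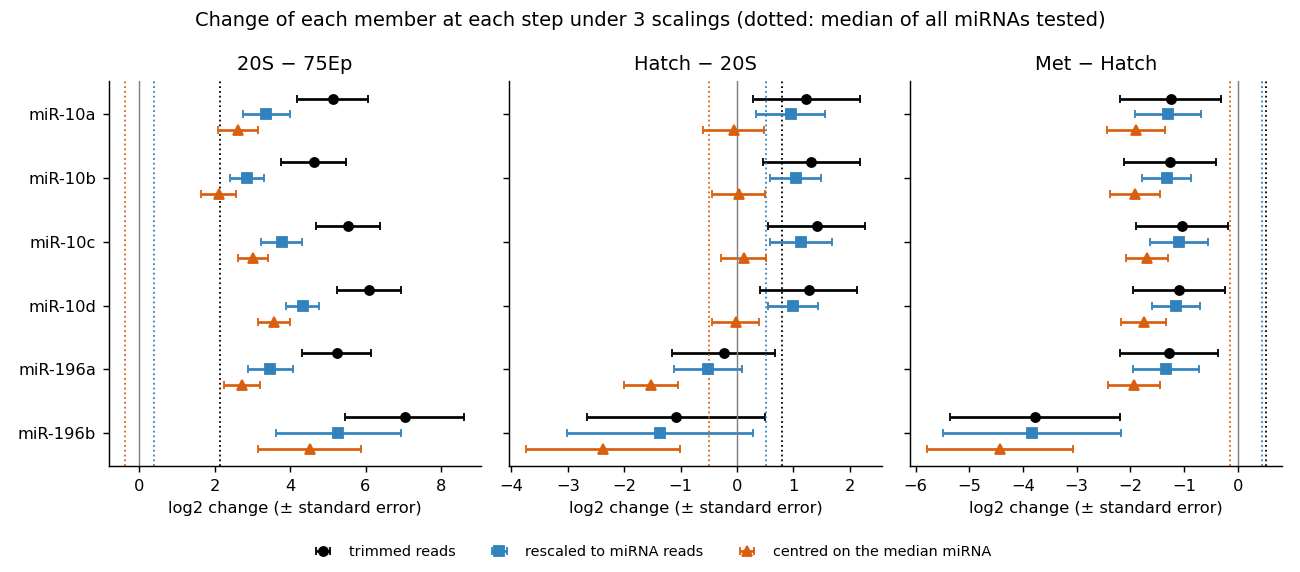
Log2 change with its standard error (horizontal axis) of each of 6 members at the 3 steps between stages, on trimmed reads (black circles), rescaled to miRNA reads (blue squares) and centred on the median miRNA (orange triangles). Dotted lines in the same colours are the medians of all 295 miRNAs tested. At 20S minus 75Ep all 6 members lie to the right of the median, and at Met minus Hatch all 6 lie to its left. The scalings shift all miRNAs of a comparison alike, so the side of the median cannot differ between them.

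Over the whole span, 5 of the 6 members were higher at Met than at 75Ep, and none was lower, where 63.4% of all miRNAs were higher and 5.42% lower. The log2 change was 6.26 for miR-10d (standard error 0.86, limma adjusted p = 4.19e-04), 5.91 for miR-10c, 5.11 for miR-10a, 4.67 for miR-10b and 3.72 for miR-196a (standard error 0.91, limma adjusted p = 0.00602). The median of all miRNAs was 4.07, so that miR-196a stood below it and the 4 miR-10 miRNAs above it. miR-196b, at 2.18 (limma adjusted p = 0.247), did not pass, and with its empty library at 3 reads its change was 0.47. Without the 75Ep library at 21°C it did pass, with a change of 5.36 (limma adjusted p = 7.29e-04) that rests on the level given to the library with no read. Rescaled, the 4 miR-10 miRNAs were higher, as were 45.8% of all miRNAs, and miR-196a, at 1.62, was not (limma adjusted p = 0.0614). Centred, only miR-10c (1.45) and miR-10d (1.80) of the 6 members were higher and the value of miR-196a was -0.75 (limma adjusted p = 0.239), while 15.6% of all miRNAs were higher.

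On trimmed reads the fitted miR-10 values were furthest from 75Ep at Hatch. This comparison was also added after the values were seen. All 6 tested members were higher at Hatch than at 75Ep, as were 53.6% of all miRNAs, while 0.678% of all were lower. The log2 changes lay between 4.9997 for miR-196a and 7.36 for miR-10d (limma adjusted p = 0.00231 and 7.38e-04). Against a median of 3.16 over all miRNAs the median of the members was 6.16, or 6.15 with the empty library of miR-196b at 3 reads. Rescaled 5 of the 6 were higher, all but miR-196b, and centred the 4 miR-10 miRNAs were, with 30.8% and 13.6% of all miRNAs. Centred, miR-10a was at 2.61 at 20S minus 75Ep and 2.55 at Hatch minus 75Ep, and miR-10d at 3.57 and 3.55. In the same order, miR-10b was at 2.11 and 2.14 and miR-10c at 3.02 and 3.14. Without the Hatch library at 15°C miR-196b did not pass (4.80, limma adjusted p = 0.118). Over any stage, 6 of the 6 members differed in limma's moderated F-test, as did 68.8% of all miRNAs.

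The make-up of the miR-10 family differed between 75Ep and the later stages. Of the miR-10 reads of 75Ep embryos, miR-10b held 53.8% at 21°C and 68.0% at 15°C (exact binomial 95% intervals 49.8% to 57.7% and 64.8% to 71.0%). In the other 6 libraries it held 36.7% to 42.0%. miR-10d had 24.5% at 21°C and 23.1% at 15°C at 75Ep, and 40.9% to 45.6% in the other 6, so that the 2 miRNAs were about level from 20S on. In the 21°C libraries the ratio of miR-10d to miR-10b was 0.455 at 75Ep, 0.992 at 20S, 1.13 at Hatch and 1.17 at Met. In the 15°C libraries the ratio was 0.340 at 75Ep, 1.19 at 20S, 0.975 at Hatch and 1.19 at Met. The 75Ep values stood below all others, and the remaining stages overlapped. miR-10c made up 18.4% at 21°C and 7.42% at 15°C at 75Ep, and 14.3% to 18.5% elsewhere, and miR-10a made up 1.46% to 3.36% in all 8 libraries.

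Within the miR-196 family miR-196a was the main member in every library and miR-196b held less of the reads at each later stage from 20S on. At 21°C miR-196b held 15.6% of the miR-196 reads at 20S, 8.53% at Hatch and 3.83% at Met. At 15°C miR-196b held 15.9% at 20S, 10.3% at Hatch and 0.839% at Met. At 75Ep it held 23.9% at 21°C (21 of 88 reads, exact binomial 95% interval 15.4% to 34.1%) and none of 31 reads at 15°C (0 to 11.2%). The 3 later stages did not overlap, while the 75Ep libraries stood at both ends of the range. Reads of miR-196a at 21°C were 5.41 times those of miR-196b at 20S, 10.7 times at Hatch and 25.1 times at Met, and at 15°C they were 5.31 times at 20S, 8.70 times at Hatch and 118 times at Met.

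**Figure D3:**
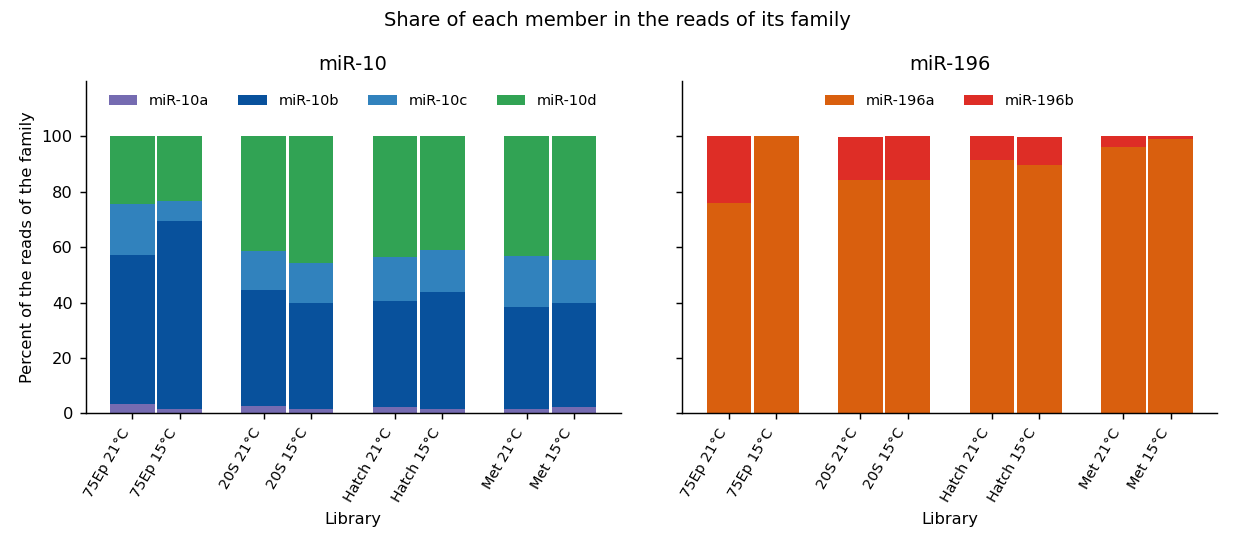
Percent of the reads of the miR-10 family (left) and of the miR-196 family (right) held by each member in each of the 8 libraries, with 21°C before 15°C within a stage. miR-10b is the largest part of the miR-10 bars at 75Ep (53.8% at 21°C and 68.0% at 15°C), and the miR-196b part is 15.6% and 15.9% at 20S and 3.83% and 0.839% at Met. The single reads of miR-196c and miR-196d are too few to show.

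Ratios within a library do not depend on how the library is scaled, and 3 of them were compared between the 4 late libraries (Hatch and Met) and the 4 early ones (75Ep and 20S) with exact permutation tests, two-sided, over the 70 splits of 8 libraries. The log2 ratio of summed miR-196 to summed miR-10 reads was -5.54 ± 0.19 in late and -3.80 ± 0.84 in early libraries (SD, n = 4 each). The difference was -1.74 with an exact permutation p of 0.0286, which is the smallest the 70 splits can give. These splits treat the 2 libraries of a stage as independent. Adjusted over the 3 ratios by Benjamini-Hochberg, p was 0.0857, above the threshold. At 21°C miR-10 reads outnumbered miR-196 reads 7.10-fold at 75Ep, 11.8-fold at 20S, 38.5-fold at Hatch and 51.1-fold at Met. At 15°C they did so 28.7-fold at 75Ep, 15.9-fold at 20S, 47.8-fold at Hatch and 49.7-fold at Met. Late and early libraries did not overlap, and ratios between other families were not computed. The 4 libraries of a group are 2 stages with 2 temperatures each, and the exact p was 0.0571 without any 1 late library and 0.0286 without any 1 early library.

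For miR-10d to miR-10b the log2 ratio was 0.16 ± 0.13 in late and -0.61 ± 0.87 in early libraries (SD, n = 4 each), a difference of 0.77 that did not pass (exact permutation p = 0.257, adjusted p = 0.386), since the 20S libraries stood with the late ones. For miR-196a to miR-196b the difference was 1.20 (exact permutation p = 0.400, adjusted p = 0.400), and its early mean holds the 75Ep library with no miR-196b read.

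**Figure D4:**
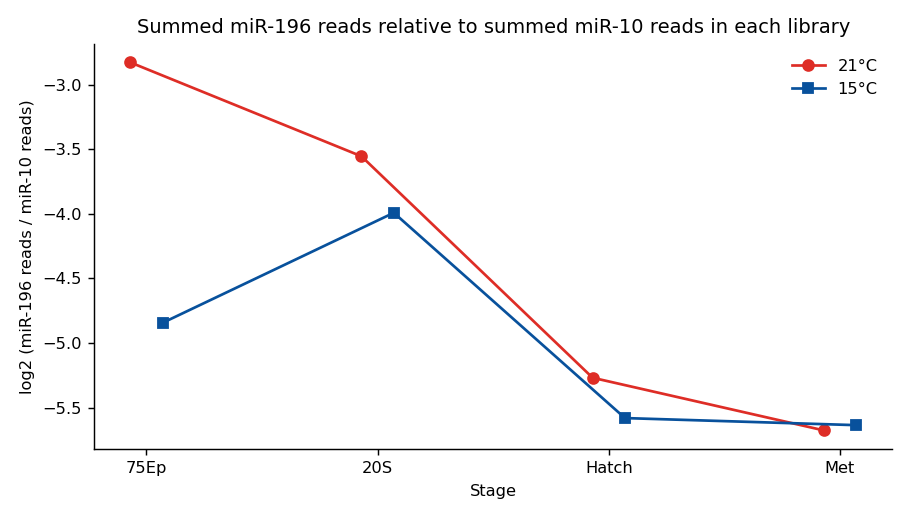
Log2 ratio of summed miR-196 reads to summed miR-10 reads (vertical axis) in each library, by stage, for 21°C (red circles) and 15°C (blue squares). The Hatch and Met libraries lie between -5.68 and -5.27, below the 75Ep and 20S libraries, which lie between -4.84 and -2.83.

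Incubation temperature was tested over the 4 stages as pairs, as the study set out to ask whether embryonic temperature bears on the miRNAs of sole. No member passed between 21°C and 15°C in limma (0 of 6, and none at an unadjusted p under 0.05), nor did any of the 295 miRNAs (8 at an unadjusted p under 0.05, none adjusted with voom weights), which is 0.0% of them. The log2 differences of the members lay between -0.61 for miR-10b and 1.81 for miR-196b, each with a limma adjusted p of 0.998. The value of miR-196b was 0.22 without either 75Ep library and up to 2.39 without another, so it rests on the level given to the library with no read at 75Ep and 15°C. Without a Met library miR-10a was at 0.72 and miR-10c at 0.36, against -0.03 and -0.13 with all libraries. A difference that changes with stage counts as error in this test. The study itself reported differences between temperatures within single stages, up to hatching, by quantitative PCR of selected miRNAs. None of those was a miR-10 or miR-196 miRNA. Within a stage there is 1 library per temperature, so the ratios below have no replicate check.

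At 75Ep the members divided. The share at 21°C over that at 15°C was 2.25 for miR-10c (counting interval 1.65 to 3.10), 2.79 for miR-196a (1.80 to 4.42) and 2.09 for miR-10a (0.998 to 4.54), on 115, 67 and 21 reads at 21°C and 66, 31 and 13 reads at 15°C. It was 0.718 for miR-10b (0.626 to 0.821) and 0.960 for miR-10d (0.773 to 1.19). For miR-196b, with 21 reads at 21°C against none at 15°C, it was at least 9.05, with 3 reads as the floor. At this stage 49.2% of 193 miRNAs were at least 2-fold higher at 21°C and 9.84% at least 2-fold lower, with a median ratio of 1.94. miR-10a, miR-10c and miR-196a lay above that median, with counting intervals that include it, and miR-10b and miR-10d lay below it. Centred, the ratios were 1.10 for miR-10a, 1.19 for miR-10c, 1.47 for miR-196a, 0.379 for miR-10b and 0.506 for miR-10d.

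At 20S and Hatch the temperatures were close. The ratios of 21°C to 15°C ran from 0.832 for miR-10d to 1.59 for miR-10a at 20S, and from 0.942 for miR-10b to 1.36 for miR-10a at Hatch. No member reached 2-fold in either direction at these stages, where 11.3% and 12.1% of all miRNAs were at least 2-fold higher at 21°C and 9.24% and 12.5% at least 2-fold lower. The median ratio of all miRNAs was 1.05 at 20S and 0.958 at Hatch. miR-10a stood highest of the miR-10 miRNAs at both stages, with 759 reads at 21°C and 618 at 15°C at 20S, and 2093 and 2044 reads at Hatch. Rescaled and centred, the ratios of miR-10c and miR-10d at Hatch, 1.04 and 1.10, turned to values under 1, as did that of miR-196b, 1.06 with a counting interval of 0.875 to 1.27 that spans 1.

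At Met 5 members were lower at 21°C. The ratio was 0.206 for miR-10a (counting interval 0.186 to 0.228), 0.270 for miR-10b, 0.332 for miR-10c, 0.267 for miR-10d and 0.261 for miR-196a (0.237 to 0.287). miR-10b, for example, had 10304 reads at 21°C and 44609 at 15°C. Of 258 miRNAs 64.3% were at least 2-fold lower at 21°C at this stage and 4.26% at least 2-fold higher, the median ratio was 0.390, and the share of all miRNAs in the trimmed reads had a ratio of 0.388. Rescaled to miRNA reads, the ratios of the 5 members were 0.530, 0.696, 0.856, 0.688 and 0.673 in the same order. miR-196b alone among the tested members was not lower, at 1.23 (0.633 to 2.39) on 21 reads at 21°C and 20 at 15°C, which is 3.16 when rescaled. Summed markers of muscle and of the nervous system were lower at 21°C too, as were most miRNAs at this stage. The summed muscle miRNAs (miR-1, miR-133 and miR-206) took 0.365% of the trimmed reads at 21°C and 1.91% at 15°C, and the summed neural miRNAs (miR-9, miR-124 and miR-137) 0.110% at 21°C and 0.422% at 15°C, and the part of tissue make-up in the ratios was not tested.

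**Figure D5:**
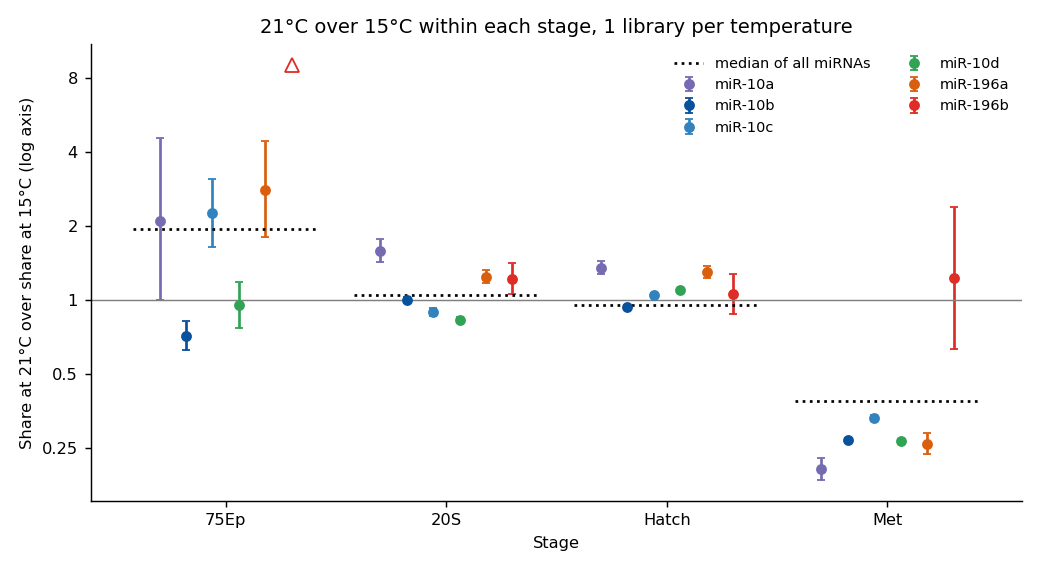
Share of the trimmed reads at 21°C over that at 15°C (log axis) for each of 6 members at each stage, with 1 library per temperature. Bars are 95% counting intervals, dotted lines are the medians of all miRNAs with a read at both temperatures, and the open triangle is the lower bound of 9.05 for miR-196b at 75Ep. At Met 5 members lie between 0.206 and 0.332, with the median of all miRNAs at 0.390 and miR-196b at 1.23.

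The summed miR-99, miR-100 and miR-125 miRNAs and the summed let-7 miRNAs were most abundant at Met at each temperature. miR-99 and miR-100 are the closest kin of miR-10 and are found with miR-125 and let-7 genes elsewhere in vertebrate genomes, and let-7 is the classic miRNA of late development. Of the 8 miR-99, miR-100 and miR-125 miRNAs listed 6 were tested, and 1 of them was higher at 20S than at 75Ep, with a median log2 change of 0.34, against 5.38 for the miR-10 and miR-196 miRNAs and 2.15 for all, and with 39.3% of all miRNAs higher. Rescaled none was higher and 1 lower, and centred none was higher and 4 lower. At Met minus Hatch 4 of the 6 were higher, beside 13.6% of all miRNAs, with a median of 3.52, against -1.26 for the miR-10 and miR-196 miRNAs. At Met minus 75Ep all 6 were higher (4 when centred), beside 63.4% of all miRNAs, from miR-99a-5p at 5.70 to miR-100 at 7.49. let-7 was alike, with 1 of 10 higher at 20S minus 75Ep (median 0.63), 9 of 10 at Met minus Hatch (median 5.35) and 9 of 10 at Met minus 75Ep, from let-7j at 4.37, which did not pass, to let-7i at 9.26. Rescaled and centred, none of the 10 was higher and 2 were lower at 20S minus 75Ep, 9 were higher at Met minus Hatch, and 8 rescaled and 5 centred were higher at Met minus 75Ep. Of all 295 miRNAs, 35 were higher and 8 lower rescaled at 20S minus 75Ep, and 32 higher and 31 lower centred. At Met minus Hatch 50 were higher rescaled and 46 centred, and at Met minus 75Ep 135 rescaled and 46 centred. These differences between lists were not tested.

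Summed reads show the same order of events. In 20S embryos the miR-10 miRNAs took 1.08% of the trimmed reads at 21°C and 1.18% at 15°C, where the summed miR-99, miR-100 and miR-125 miRNAs took 0.0447% at 21°C and 0.0448% at 15°C. At Met the miR-10 miRNAs took 0.661% at 21°C and 2.39% at 15°C, and the others 1.89% at 21°C and 5.17% at 15°C. The miR-10 miRNAs thus took a larger share than the summed miR-99, miR-100 and miR-125 miRNAs at 20S and a smaller share at Met, at both temperatures. That sum includes miR-125, and miR-99 and miR-100 were not summed without it.

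Muscle and neural miRNAs were described in the same way. Of 12 muscle miRNAs 5 were higher at 20S than at 75Ep (median 1.84) and 7 at Met than at 75Ep (median 5.21, with miR-1a-5p at 11.60 as the largest change), and none passed at Met minus Hatch. Of all miRNAs 39.3% and 63.4% were higher in these comparisons with 75Ep. Rescaled 1 muscle miRNA was higher at 20S minus 75Ep and 7 at Met minus 75Ep, and centred 1 was higher and 1 lower at 20S minus 75Ep, 1 lower at Met minus Hatch, and 4 higher and 3 lower at Met minus 75Ep. Of 9 neural miRNAs 4 were higher at 20S than at 75Ep (median 3.33) and 7 at Met than at 75Ep, from miR-124-5p at -0.30, which did not pass, to miR-137b at 8.67. Rescaled 1 of the 9 was higher at 20S minus 75Ep and 6 at Met minus 75Ep. Centred 1 was higher at 20S minus 75Ep, and 2 higher and 2 lower at Met minus 75Ep. Of all miRNAs 11.9% rescaled and 10.8% centred were higher at 20S minus 75Ep, and 45.8% and 15.6% at Met minus 75Ep. Centred, 31 of all 295 were lower at 20S minus 75Ep, 45 at Met minus Hatch and 77 at Met minus 75Ep.

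The course of single miRNAs over the 8 libraries was compared with Pearson's r on the log2 values, among 174 other miRNAs detected in all 8. The 5 members detected in all 8 had r between 0.932 (miR-10b with miR-196a) and 0.995 (miR-10b with miR-10d) among themselves. miR-10c was most like miR-19d (0.997), miR-30e (0.994) and the muscle miRNA miR-133b-3p (0.991), and miR-10d like miR-133b-3p (0.989), miR-19d (0.988) and miR-30e (0.984). miR-10a was most like miR-19c (0.987), miR-139 (0.986) and miR-19a-5p (0.985), and miR-10b like miR-19a-5p, miR-19d (0.977 each) and miR-133b-3p (0.974). miR-196a had other neighbours, miR-1788-3p (0.9902), miR-375 (0.983), which is known from the pancreas and pituitary, and miR-30a-3p (0.979). The points share their libraries, their depth and the low share of all miRNAs at 75Ep.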

How the data were processed

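Small RNA of whole sole embryos and larvae was sequenced on the SOLiD platform in 8 libraries (4 stages, 2 incubation temperatures), each from pooled triplicates. The authors trimmed the reads with CLC Genomics Workbench, removed other small RNAs by BLAST, mapped the rest to miRBase and deposited log2 values of each miRNA's reads as a percent of trimmed reads. A strand or multi-mapping rule for close copies was not given in the sources used here. Read numbers were recovered from the deposited values: 2023 of the 2033 above the lowest value (-46.51, no read) were whole within 0.01 read, and all of the members' values were.

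Values with no read were put at -16.60, which is 1 log2 unit under the smallest value that 1 read takes in any library. Stages and temperatures were compared with limma 3.58.1 in R 4.3.3 (stage and temperature as terms, trend in the prior variance, Benjamini-Hochberg, 0.05) over the 295 miRNAs with at least 1 read in at least 2 libraries. The fit was run on simulated data with changes at Met only, read at Met minus Hatch, and the other comparisons were not simulated. Ratios, intervals (exact, Clopper-Pearson, 95%) and exact permutation tests were computed with scipy 1.17.1, pandas 2.3.3 and numpy 2.4.6 under Python 3.11.15, and plots with matplotlib 3.10.9. With trimmed reads of 2169069 to 4965849 per library, 3 reads are 6.04e-05% to 0.000138%. The miRNAs named are every miR-10 and miR-196 miRNA, the 3 of highest Pearson r with each member detected in all 8 libraries, and those with the largest and smallest Met minus 75Ep change of each list, with muscle miR-206-5p, at no change, left unnamed in the results. The members and the lists (miR-99 with miR-100 and miR-125, let-7, muscle, neural) were chosen with earlier results of these data known. Alternatives were 2 other scalings, undetected values as deposited, 2 pseudocounts, 2 filters, sums per family, 2 variance priors, voom weights, no temperature term or stage block, and leaving out each library. The comparisons Hatch minus 75Ep and Met minus 20S were added after the values were seen.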

Additional observations from a re-analysis of the deposited data

Results flagged for a closer look

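For 4 members the ratio of 21°C to 15°C lay on opposite sides of 1 at different stages, each from 1 library per temperature, and the difference between stages was not tested. miR-10a had a ratio of 1.59 at 20S and 0.206 at Met. miR-10c had a ratio of 2.25 at 75Ep and 0.332 at Met. miR-10d had a ratio of 1.10 at Hatch, which was 0.893 rescaled and 0.889 centred and so under 1, and 0.267 at Met, and miR-196a a ratio of 2.79 at 75Ep and 0.261 at Met. The low side is in each case the Met library at 21°C, in which the median of all miRNAs was also low, at 0.390 of the 15°C library.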

How the results depend on the processing

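Of the numbers of members called, those at Hatch minus 20S (0 of 6) and 21°C minus 15°C (0 of 6) moved under no setting. Summed per family, 2 of 2 families passed at 20S minus 75Ep, Met minus 75Ep, Hatch minus 75Ep and over any stage, and 0 at Met minus 20S. Many other sums passed in the same fits. Among all sums tested, in either direction, 91 passed at 20S minus 75Ep, 158 at Met minus 75Ep and 127 at Hatch minus 75Ep. The sums tested were fewer than the 295 miRNAs, so these counts stand against a smaller total. Counts of all sums over any stage and at Met minus 20S are not given here. Centred, 6 members passed as lower at Met minus Hatch, beside 15.3% of all miRNAs, and 6 as lower at Met minus 20S, beside 26.8%. Centred, 2 passed as higher at Met minus 75Ep, beside 15.6% of all miRNAs. With 5 reads added 1 member passed as lower at Met minus Hatch, as did 19 of all 295 miRNAs. At Met minus 20S 0 passed rescaled, with undetected values as deposited or with no temperature term. Leaving out each library gave 0 to 6 members at 20S minus 75Ep, 0 to 1 at Met minus Hatch and at Met minus 20S, and 5 to 6 at Met minus 75Ep, at Hatch minus 75Ep and over any stage. The log2 difference of summed miR-196 to summed miR-10 between late and early libraries was -2.08 to -1.41, that of miR-10d to miR-10b 0.45 to 1.06, and that of miR-196a to miR-196b 0.41 to 2.35. A fit without 1 library leaves a stage with a single library, which is assumed to vary like the other stages, and has fewer residual degrees of freedom. Counts of all miRNAs moved too, from 119 at 20S minus 75Ep to 43 rescaled, 63 centred and 5 to 145 with a library left out, from 52 at Met minus Hatch to 91 centred, 31 with undetected values as deposited, 33 above the median abundance, 28 summed per family and 6 to 86, from 203 at Met minus 75Ep to 123 centred and 129 above the median abundance, from 109 at Met minus 20S to 69 with undetected values as deposited, 68 above the median abundance and 61 to 136, from 160 at Hatch minus 75Ep to 94 to 172, and from 4 at Hatch minus 20S to 0 to 33. Above the median abundance only 160 miRNAs were tested in place of 295, so the lower counts of that fit are not lower shares. The count summed per family also stands against a total below 295. Centred values turned the sign of miR-196a at Met minus 75Ep (-0.75) and of miR-10b (-1.90), miR-10c (-1.57) and miR-10d (-1.78) at Met minus 20S. Among changes called in neither fit, centring turned miR-196b at Met minus 75Ep (-2.29) and miR-10a (-0.06) and miR-10d (-0.02) at Hatch minus 20S, and rescaling turned miR-10b (-0.28) and miR-10d (-0.17) at Met minus 20S and miR-10a (0.27) and miR-10c (0.16) at 21°C minus 15°C. Leaving out single libraries turned further uncalled changes at Hatch minus 20S, Met minus Hatch, Met minus 75Ep, Met minus 20S and 21°C minus 15°C. At Hatch the ratio of 21°C to 15°C turned to 0.851 rescaled and 0.847 centred for miR-10c, to 0.893 and 0.889 for miR-10d, and to 0.861 and 0.856 for miR-196b. The cause was not tested. No paired analysis by replicate was possible because each stage and temperature had 1 pooled library. Depth limits miR-196b at 75Ep and Met, at 21 reads or fewer per library, and miR-196c and miR-196d, with 1 read each.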
